A study of Homo sapiens with 4 samples.

Results

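The 42 genes described here carry out mitosis: entry into it, the spindle, its checkpoint, the separation of chromosomes and the division of the cell. They were taken by symbol from 2 deposited expression tables of 25343 rows each, where all 42 were found, and all 42 had a mean of at least 1 CPM (reads of a gene scaled to library size) over the 2 libraries of each table, as did 13114 rows in all. The study silenced MAOA, which encodes the amine-degrading enzyme monoamine oxidase A of the outer mitochondrial membrane, in prostate cancer lines and sequenced total RNA with single reads of 50 nt. The 4 libraries were C4-2B ENZR with a stable shRNA against the coding region of MAOA, C4-2B ENZR with a non-targeting shRNA, LNCaP with the MAOA shRNA, and LNCaP with the non-targeting shRNA. LNCaP is an androgen-responsive human prostate carcinoma line, and C4-2B ENZR is an enzalutamide-resistant form of C4-2B, itself derived from LNCaP. Both C4-2B ENZR libraries came from cells kept in 20 µM enzalutamide, an antiandrogen, and both LNCaP libraries from cells grown without it, all with 10% serum. Controls also carried a lentivirus and went through antibiotic selection. Nothing in the labels says whether the lines received one hairpin sequence or whether the selected cells were pools or clones.

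Cells enter mitosis when cyclin B bound to the kinase CDK1 is activated by CDC25 phosphatases, with help from the kinases PLK1 and AURKA. Kinetochores then attach chromosomes to spindle microtubules, the spindle checkpoint holds the anaphase-promoting complex until attachment is complete, and kinesins and the cytokinesis proteins complete the division. Most of these transcripts are made in G2 and M phase under the MuvB, B-MYB and FOXM1 factors, which makes their level in a culture a common measure of proliferation, also in prostate cancer.

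With 1 library per group, no difference inside a line has a replicate check. The libraries held 23479051 to 52550452 recovered reads, and each mitotic gene had between 188 and 10481 reads in a library. MAOA itself was at 219 CPM in the C4-2B ENZR knockdown, against 327 CPM in its control, and at 140 CPM in the LNCaP knockdown, against 445 CPM in its control. All 8 luminal prostate markers were detected in every library, although KLK3, which encodes prostate-specific antigen, was at 6.34 CPM in the C4-2B ENZR knockdown and 3.72 CPM in its control, with a limma call over both lines as deposited (0.41, adjusted p = 0.0260) that was lost after centring (adjusted p = 0.120) and in edgeR with recomputed scaling (adjusted p = 0.329). Of 12 stromal, endothelial and leukocyte markers, between 4 and 6 were at 0 in each library, PDGFRA and CD3E among them, while COL1A1 ranged over the 4 libraries between 44.4 and 60.9 CPM. These 12 summed to 68.1 against 57.5 CPM in C4-2B ENZR knockdown and control and to 87.9 against 73.5 CPM in LNCaP knockdown and control. The authors' scaling left the median log2 ratio of all tested genes at 0.00 in C4-2B ENZR and at 0.11 in LNCaP, so that LNCaP ratios below, which are as deposited unless stated, would each lie 0.11 lower relative to that median.

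Mitotic transcripts were lower after MAOA knockdown in both lines, and more so in LNCaP. The log2 ratio of knockdown over control, taken on CPM + 1, had a median over the 42 genes that was negative in both lines, with -0.16 for C4-2B ENZR and -0.47 for LNCaP, or -0.59 relative to the LNCaP median of all tested genes. In C4-2B ENZR 37 of 42 were below 0, against 49.6% of all tested genes. In LNCaP all 42 were below 0, against 33.4% of all tested genes. Each other scaling tried lowered all LNCaP ratios, so that all 42 stayed below 0 there was fixed in advance. Below 0 in both lines were 37 genes (88.1%), against 23.2% of all genes tested in both tables. The differences were mostly modest. At least 20% lower on CPM + 1 were 5 mitotic genes in C4-2B ENZR (5.45% of all tested genes) and 33 in LNCaP (6.93%), or 37 relative to the LNCaP median (12.9%). At least 1.5-fold lower were 1 gene, ANLN, in C4-2B ENZR (0.963% of all tested genes) and 9 in LNCaP (1.57%). Relative to the LNCaP median this last count was 21 (2.99%). None reached a 2-fold difference as deposited, CCNB1 did in LNCaP relative to the median, and ANLN alone was 1.5-fold lower in both lines, a mark that 0.191% of all genes met. The lower sum also appeared in plain shares of reads, which set aside the authors' scaling. Such shares are themselves a scaling, because they bring every library to the same sum. Of the scalings tried, that choice gave the lowest LNCaP median over the 42 genes (-0.67). The shares are therefore no independent check on the size of the difference. The 42 genes took 0.484% of the reads of the C4-2B ENZR knockdown and 0.556% of its control, and 0.220% of the reads of the LNCaP knockdown and 0.345% of its control. Wilson 95% intervals, which cover counting error only, were 0.481% to 0.487% and 0.553% to 0.559% for C4-2B ENZR knockdown and control, and 0.219% to 0.221% and 0.344% to 0.347% for LNCaP knockdown and control. In RNA of whole cultures, fewer cells in mitosis and less of these RNAs per cell cannot be told apart.

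**Figure D1:**
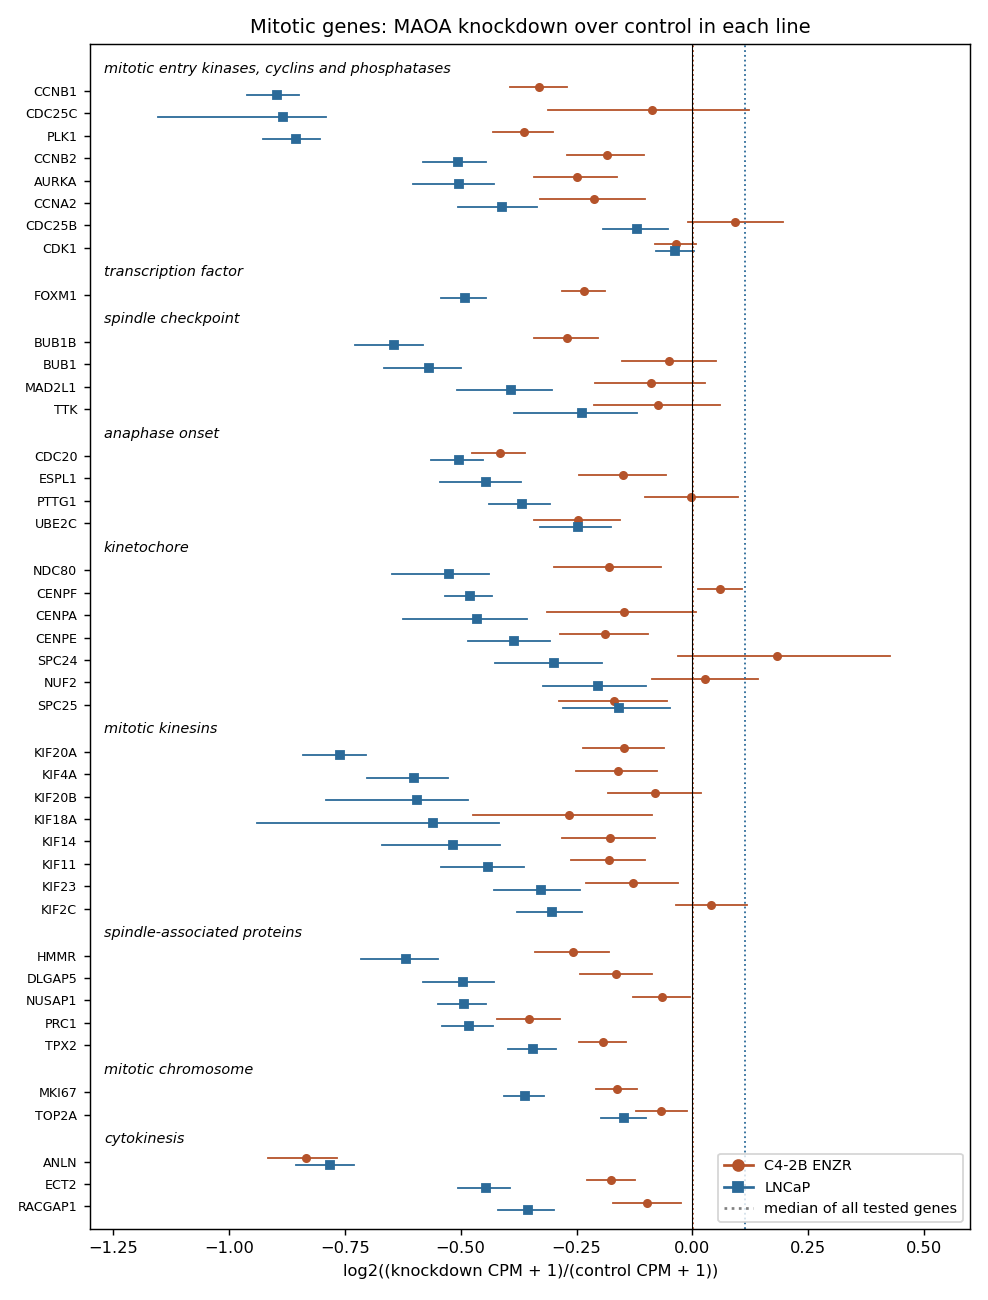
Log2 ratio of knockdown over control CPM (with 1 added to each) of the 42 genes by role; circles are C4-2B ENZR, squares are LNCaP, bars are exact 95% counting intervals of the read ratio without the added 1, and dotted lines mark the median of all tested genes in each line. The squares all lie left of 0, from -0.90 for CCNB1 to -0.04 for CDK1, while the circles run from -0.83 for ANLN to 0.18 for SPC24.

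Over both lines, limma on log2(CPM + 1) with the line as a block found that 11 of the 42 fell and none rose (Benjamini-Hochberg adjusted p below 0.05 over 13114 genes), where 1.49% of all genes fell and 4.22% rose. None rose in edgeR or DESeq2 either, and 29 mitotic genes had an unadjusted limma p below 0.05, all with a negative estimate, where 19.2% of all genes had one in either direction. After centring each line on its median, 9 fell (1.43% of all genes), and in edgeR's quasi-likelihood test with recomputed scaling 5 fell (0.869% of all genes). The lines are the only replicates of this test. Its variance is pooled over genes with 279 prior degrees of freedom against 1 residual degree of freedom, so SEs of 0.12 to 0.16 say little about the spread between the lines for a single gene.

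The promoters of these genes share short sequence elements. The cell cycle genes homology region (CHR), the element bound by MuvB complexes, was searched as TTTGAA or TTCGAA, the CCAAT box, bound by NF-Y, as CCAAT, and an E2F site as TTCGCGC or TTGGCGC, all on both strands. The window ran from 250 bases before to 50 after each gene's start in RefSeq (GRCh38.p14), a table that held 36 of the 42 genes. A CHR match was in 27 of 36 windows (75%), against 10.6% of 9601 genes tested in both tables and 16.6% of all 27305 windows. A CCAAT match was in 28 of 36 (77.8%), against 36.9% and 35.7%, and an E2F match in 6 of 36 (16.7%), against 8.76% and 5.18%. Both CHR and CCAAT were found in 23 windows (63.9%), against 4.55% and 6.58%. In 23 windows a CHR match started within 50 bases of the gene start (63.9%), against 3.05% of tested genes. In 1 window an E2F match shared bases with a CCAAT match, and in 1 a CHR match did. These matches describe letters in a window and do not show binding. Below are the windows of the 4 genes that fell with the smallest p, and of CDK1, whose level hardly differed as deposited, 5′ to 3′ with CHR and CCAAT matches in capitals.
ANLN: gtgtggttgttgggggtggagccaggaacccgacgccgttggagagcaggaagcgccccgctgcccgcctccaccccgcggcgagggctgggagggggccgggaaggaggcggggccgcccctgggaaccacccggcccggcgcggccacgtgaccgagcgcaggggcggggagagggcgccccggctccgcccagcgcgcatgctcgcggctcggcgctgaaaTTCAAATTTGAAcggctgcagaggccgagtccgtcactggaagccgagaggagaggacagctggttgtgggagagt
PLK1: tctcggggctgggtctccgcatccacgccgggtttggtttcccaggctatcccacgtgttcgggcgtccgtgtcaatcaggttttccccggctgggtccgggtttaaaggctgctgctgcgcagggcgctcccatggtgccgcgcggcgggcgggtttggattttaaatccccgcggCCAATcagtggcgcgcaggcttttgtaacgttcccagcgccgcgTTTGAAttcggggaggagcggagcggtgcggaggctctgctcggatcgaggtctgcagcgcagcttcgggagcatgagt
CCNB1: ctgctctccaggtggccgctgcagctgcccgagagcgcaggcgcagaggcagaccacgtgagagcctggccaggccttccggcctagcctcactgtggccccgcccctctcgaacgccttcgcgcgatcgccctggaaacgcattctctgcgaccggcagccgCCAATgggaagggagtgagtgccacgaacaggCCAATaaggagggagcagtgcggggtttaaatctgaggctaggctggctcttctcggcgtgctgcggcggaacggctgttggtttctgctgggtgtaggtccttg
BUB1B: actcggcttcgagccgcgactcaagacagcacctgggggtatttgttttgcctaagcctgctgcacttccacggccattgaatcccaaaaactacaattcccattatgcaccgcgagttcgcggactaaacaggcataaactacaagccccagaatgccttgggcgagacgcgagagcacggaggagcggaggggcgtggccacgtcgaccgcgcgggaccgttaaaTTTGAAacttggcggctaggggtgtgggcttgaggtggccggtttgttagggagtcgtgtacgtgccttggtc
CDK1: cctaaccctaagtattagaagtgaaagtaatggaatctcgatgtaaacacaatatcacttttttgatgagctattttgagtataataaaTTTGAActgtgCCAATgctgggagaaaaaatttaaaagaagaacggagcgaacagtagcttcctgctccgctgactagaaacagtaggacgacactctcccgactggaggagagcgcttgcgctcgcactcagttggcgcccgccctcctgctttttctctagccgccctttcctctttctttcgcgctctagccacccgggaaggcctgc
The ANLN window (chr7:36389612-36389911, plus strand) had a pair of adjoining CHR matches that begin 26 and 20 bases before the start and no CCAAT box. The PLK1 window (chr16:23678639-23678938, plus strand) paired a CCAAT box at 73 bases with a CHR match at 29 bases before the start. The CCNB1 window (chr5:69166900-69167199, plus strand) had CCAAT boxes at 87 and 55 bases before the start, an E2F match at 132 bases and no match to the CHR letters searched. The BUB1B window (chr15:40160819-40161118, plus strand) had a CHR match at 23 bases before the start. In the CDK1 window (chr10:60778081-60778380, plus strand) the CHR match lay farther out, 161 bases before the start, beside a CCAAT box at 150 bases, and E2F matches began 28 bases before and 20 bases after the start. The 27 genes with a CHR match had median log2 ratios of -0.16 (C4-2B ENZR) and -0.49 (LNCaP). Over the 9 without a match these medians were -0.09 and -0.39. Limma called 7 of the 27 and 3 of the 9 (CCNB1, CDC25C and KIF20A). Only TTTGAA and TTCGAA were searched, so the 9 lack these letters and need not lack a CHR. Whether a CHR bears on the ratios was therefore not tested. For the CCAAT box the medians in C4-2B ENZR and LNCaP were -0.16 and -0.48 over 28 genes with a match and -0.13 and -0.46 over 8 without one.

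**Figure D2:**
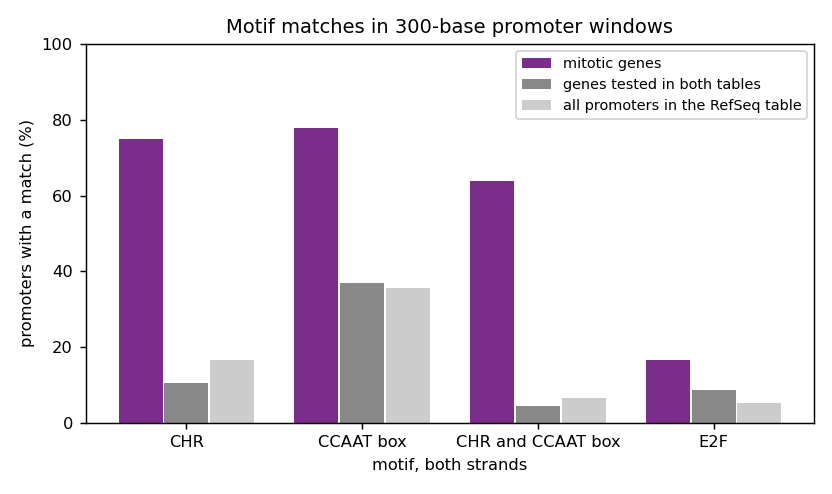
Percent of promoter windows of 300 bases with at least 1 match to each motif on either strand, for the 36 matched mitotic genes, the 9601 matched genes tested in both tables and all 27305 windows of the RefSeq table. The mitotic bars for CHR (75%) and CCAAT (77.8%) stand above both sets of other genes (10.6% and 16.6% for CHR).

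Among the 8 genes that drive mitotic entry, 4 fell and none rose: PLK1, CCNB1, CDC25C and AURKA. CCNB1, the cyclin B1 gene, was at 154 CPM in the C4-2B ENZR knockdown, against 194 CPM in its control, and at 76.7 CPM in the LNCaP knockdown, against 144 CPM in its control. It was lower in both lines and more so in LNCaP (mean log2 ratio -0.61, SE 0.13, limma adjusted p = 0.000175). PLK1, the polo-like kinase that acts on CDC25 and on the centrosomes, was at 140 against 180 CPM in C4-2B ENZR knockdown and control and at 64.5 against 117 CPM in LNCaP knockdown and control (-0.61, SE 0.12, adjusted p = 0.000169). PLK1 and CCNB1 thus kept 77.6% and 79.4% of their control level in the C4-2B ENZR knockdown and 54.9% and 53.4% in the LNCaP knockdown. CDC25C, a phosphatase that activates CDK1, differed unevenly, with 13.8 against 14.8 CPM in C4-2B ENZR knockdown and control and 7.39 against 14.5 CPM in LNCaP knockdown and control (-0.49, SE 0.15, limma adjusted p = 0.0373). Its C4-2B ENZR ratio was -0.09, where the counting interval of -0.31 to 0.12 included 0, so this call rests on LNCaP. AURKA, the Aurora A kinase of the centrosome and spindle, was at 76.0 against 90.5 CPM and at 35.5 against 50.8 CPM in knockdown and control of C4-2B ENZR and LNCaP (adjusted p = 0.0495, at the edge of the threshold). CDK1, the kinase itself, was nearly level in both lines as deposited, with a LNCaP ratio of -0.04, or -0.15 relative to the median. It had 321 CPM in the C4-2B ENZR knockdown and 329 CPM in its control, and 172 CPM in the LNCaP knockdown and 176 CPM in its control (limma adjusted p = 0.922). CDC25B, another activating phosphatase, was at 64.1 against 60.1 CPM in C4-2B ENZR knockdown and control and at 60.4 against 65.7 CPM in LNCaP knockdown and control, so the lines pointed in opposite directions. The cyclin genes CCNB2 (-0.19 and -0.51 in C4-2B ENZR and LNCaP) and CCNA2 (-0.21 and -0.41), the second of which also acts in S phase, were lower in both lines without passing the test. Between the catalytic subunit and its partner in one complex, CDK1 and CCNB1, the log2 ratios thus lay 0.04 below 0 against 0.90 below 0 in LNCaP.

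FOXM1, the transcription factor of many G2 and M phase genes, was at 293 CPM in the C4-2B ENZR knockdown and 345 CPM in its control, and at 114 CPM in the LNCaP knockdown and 160 CPM in its control. It was lower in both lines but did not pass as deposited (mean log2 ratio -0.36, SE 0.13, limma adjusted p = 0.0725). After centring on the median it did (limma adjusted p = 0.0463). It did not with TMM recomputed (adjusted p = 0.0651 in limma and 0.0771 in edgeR) or in DESeq2 with its own scaling (0.0743). Of 12 further genes of the MuvB, B-MYB and DREAM complexes, which activate or repress these promoters, limma, edgeR with recomputed scaling and centred limma called 0 in either direction (3 with an unadjusted limma p below 0.05). They had a median ratio of -0.04 in C4-2B ENZR against 0.09 in LNCaP, or -0.02 relative to the LNCaP median of all tested genes. In LNCaP as deposited the list was divided, with 5 counting intervals below 0 and 6 above. Some of those 6 reached below the LNCaP median of all tested genes (0.11), and 7 of the 12 ratios lay below that median. MYBL2, the B-MYB gene, and RBL1, the p107 gene, stood at -0.46, whereas RBL2, the gene of the related p130, was at 0.46 and E2F5 at 0.47 (named after their values were seen).

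In the spindle checkpoint, 1 of 4 genes fell. BUB1B, which encodes the checkpoint protein BubR1, was at 126 CPM in the C4-2B ENZR knockdown, against 153 CPM in its control, and at 48.1 CPM in the LNCaP knockdown, against 75.7 CPM in its control (-0.46, SE 0.12, limma adjusted p = 0.00938). The others were lower in LNCaP while in C4-2B ENZR their counting intervals included 0. BUB1, a checkpoint kinase, had ratios of -0.05 in C4-2B ENZR and -0.57 in LNCaP, MAD2L1, the MAD2 gene, had -0.09 and -0.39, and TTK, the MPS1 kinase gene, was at 34.9 against 36.8 CPM in C4-2B ENZR knockdown and control and at 16.4 against 19.5 CPM in LNCaP knockdown and control.

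Of 4 genes of anaphase onset, CDC20 fell. CDC20, the activator of the anaphase-promoting complex that the checkpoint holds back, was at 176 CPM in the C4-2B ENZR knockdown, against 235 CPM in its control, and at 86.9 CPM in the LNCaP knockdown, against 124 CPM in its control. Its ratios of -0.42 and -0.50 were close in the 2 lines (mean -0.46, SE 0.12, limma adjusted p = 0.01003). UBE2C, the E2 enzyme of the same complex, had ratios of -0.25 in each line as deposited (-0.36 in LNCaP relative to the median) and did not pass (adjusted p = 0.255). ESPL1, which encodes separase, had -0.15 in C4-2B ENZR and -0.45 in LNCaP. PTTG1, which encodes its inhibitor securin, was at 65.8 against 65.9 CPM in C4-2B ENZR knockdown and control and at 62.4 against 80.8 CPM in LNCaP knockdown and control.

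Of the 7 kinetochore genes limma as deposited, edgeR and DESeq2 called 0 in either direction. However, 3 (CENPA, CENPE and NDC80) had an unadjusted limma p below 0.05. With each library brought to the same sum, limma called NDC80 and CENPE lower (adjusted p = 0.0161 and 0.0266). In C4-2B ENZR the group was divided. There 4 were below 0, led by CENPE, a kinetochore kinesin, at -0.19, and by NDC80, a subunit of the microtubule-binding NDC80 complex, at -0.18, whereas SPC24 (0.18), CENPF (0.06) and NUF2 (0.03) were above 0. CENPF, a large protein of the outer kinetochore, was at 287 CPM in the C4-2B ENZR knockdown, against 275 CPM in its control, and at 107 CPM in the LNCaP knockdown, against 150 CPM in its control. The subunits of the NDC80 complex did not share one ratio. In LNCaP NDC80 was at -0.53 (24.6 against 35.8 CPM in knockdown and control), SPC24 at -0.30, NUF2 at -0.20 and SPC25 at -0.16. SPC24 was the group's member nearest to no mean difference, with 13.9 against 12.1 CPM in C4-2B ENZR knockdown and control and 21.5 against 26.6 CPM in LNCaP knockdown and control (limma adjusted p = 0.888). CENPA, the centromeric histone H3 variant, had ratios of -0.15 in C4-2B ENZR and -0.46 in LNCaP.

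Among 8 mitotic kinesins KIF20A and KIF4A fell. KIF20A, a motor of the central spindle needed for cytokinesis, was at 82.4 CPM in the C4-2B ENZR knockdown, against 91.3 CPM in its control, and at 54.6 CPM in the LNCaP knockdown, against 93.3 CPM in its control (-0.45, SE 0.12, limma adjusted p = 0.0110). KIF4A, a chromokinesin that acts with PRC1 at the midzone, was at 81.2 against 90.9 CPM in C4-2B ENZR knockdown and control and at 34.4 against 52.7 CPM in LNCaP knockdown and control (-0.38, SE 0.13, adjusted p = 0.0467). KIF4B, a near-identical copy, shares 13.4% of the 50-mers of KIF4A but held only 1 against 4 reads in C4-2B ENZR knockdown and control and 3 against 6 reads in LNCaP knockdown and control. Both calls rest mainly on LNCaP, where the ratios were -0.76 and -0.60, against -0.15 and -0.16 in C4-2B ENZR. The rest of the group was lower in LNCaP too, between -0.59 for KIF20B and -0.30 for KIF2C. KIF11, the motor that pushes the spindle poles apart, was at -0.18 in C4-2B ENZR and -0.44 in LNCaP, KIF14 was at -0.18 and -0.52, KIF18A, which damps chromosome movements at the plate, at -0.27 and -0.56, and KIF23, a subunit of centralspindlin, at -0.13 and -0.33. KIF2C, a microtubule depolymerase, was the nearest to no difference, with 112 against 109 CPM in C4-2B ENZR knockdown and control and 56.8 against 70.3 CPM in LNCaP knockdown and control (adjusted p = 0.622).

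Of 5 spindle-associated proteins, PRC1 and HMMR fell. PRC1, which bundles antiparallel microtubules at the midzone, was at 127 CPM in the C4-2B ENZR knockdown, against 162 CPM in its control, and at 87.8 CPM in the LNCaP knockdown, against 123 CPM in its control (-0.42, SE 0.12, limma adjusted p = 0.0222). In GENCODE v29 50.7% of its 50-mers also occur in an overlapping locus that the tables do not list. For NUSAP1 the share in such a locus is 54.0%. HMMR, a spindle pole protein and hyaluronan receptor, was at 93.4 against 112 CPM in C4-2B ENZR knockdown and control and at 37.6 against 58.3 CPM in LNCaP knockdown and control (-0.44, SE 0.12, adjusted p = 0.0148). TPX2, the activator of Aurora A on the spindle, was at 236 against 269 CPM and at 105 against 134 CPM in knockdown and control of C4-2B ENZR and LNCaP (adjusted p = 0.217). DLGAP5, a kinetochore fibre protein, had ratios of -0.16 in C4-2B ENZR and -0.50 in LNCaP, and NUSAP1, which binds microtubules near chromatin, -0.07 and -0.49.

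Neither of the 2 mitotic chromosome genes passed the test. MKI67, the gene of the Ki-67 antigen, was at 309 CPM in the C4-2B ENZR knockdown and 346 CPM in its control, and at 144 CPM in the LNCaP knockdown and 185 CPM in its control, a lower level in both lines that did not pass (-0.26, SE 0.13, limma adjusted p = 0.248). TOP2A, the topoisomerase that untangles sister chromatids, was at 212 against 222 CPM in C4-2B ENZR knockdown and control and at 122 against 135 CPM in LNCaP knockdown and control (-0.11, adjusted p = 0.718).

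In cytokinesis, ANLN stood apart from the other mitotic genes of C4-2B ENZR. ANLN encodes anillin, the scaffold that links actin, myosin and septins in the contractile ring. It was at 94.6 CPM in the C4-2B ENZR knockdown, against 170 CPM in its control, and at 61.4 CPM in the LNCaP knockdown, against 106 CPM in its control. The knockdown libraries kept 55.8% and 57.7% of the control level in C4-2B ENZR and LNCaP (-0.81, SE 0.12, limma adjusted p = 8.51e-08). In C4-2B ENZR the gene next lowest was CDC20 at -0.42. ECT2, the RhoA exchange factor that starts the furrow, had ratios of -0.18 in C4-2B ENZR and -0.45 in LNCaP. RACGAP1, the partner of KIF23 in centralspindlin, was at 116 against 124 CPM in C4-2B ENZR knockdown and control and at 74.9 against 96.1 CPM in LNCaP knockdown and control (adjusted p = 0.308).

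**Figure D3:**
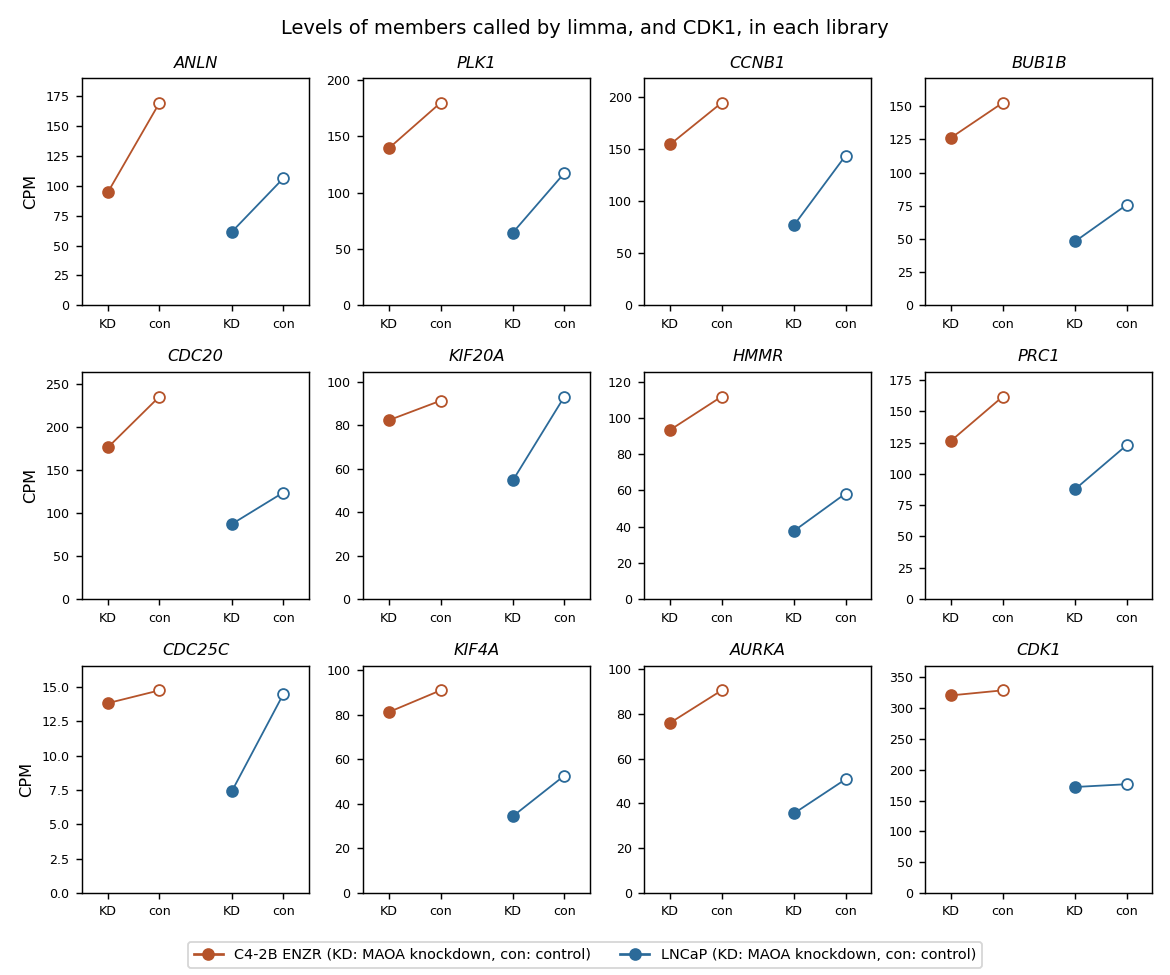
CPM of the 11 genes that fell in limma, and of CDK1, in each of the 4 libraries; filled circles are MAOA knockdown, open circles are control, lines join the 2 libraries of a line, and axes start at 0. The knockdown lies below the control in both lines in all 11 panels, and CDK1 is nearly level at 321 against 329 CPM and 172 against 176 CPM.

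Relative to the median of its tested genes, the ratio in LNCaP was below that in C4-2B ENZR for all 42 genes, against 51.1% of all genes tested in both tables, and the median of these differences was -0.41 on the log2 scale. As deposited it was lower for 40, the exceptions being ANLN and SPC25. With 1 ratio per line this difference could not be tested, all 42 values share the same libraries, and line cannot be told apart from enzalutamide, which was in both C4-2B ENZR cultures and in neither LNCaP culture, or from the lane suffix of the library labels. MAOA was at 31.3% of its control in LNCaP and 66.8% in C4-2B ENZR. Whether the depth of the knockdown bears on the difference was not tested. The gap was widest for CDC25C (-0.91) and KIF20A (-0.73) and narrowest for ANLN (-0.06), SPC25 (-0.10), UBE2C (-0.11) and CDK1 (-0.11). Pearson's r between the C4-2B ENZR and LNCaP ratios was 0.53 over the 42 genes and 0.40 over all 13114 genes, and Spearman's rho was 0.51 and 0.42. Genes of one library are not independent, and these values are a description.

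**Figure D4:**
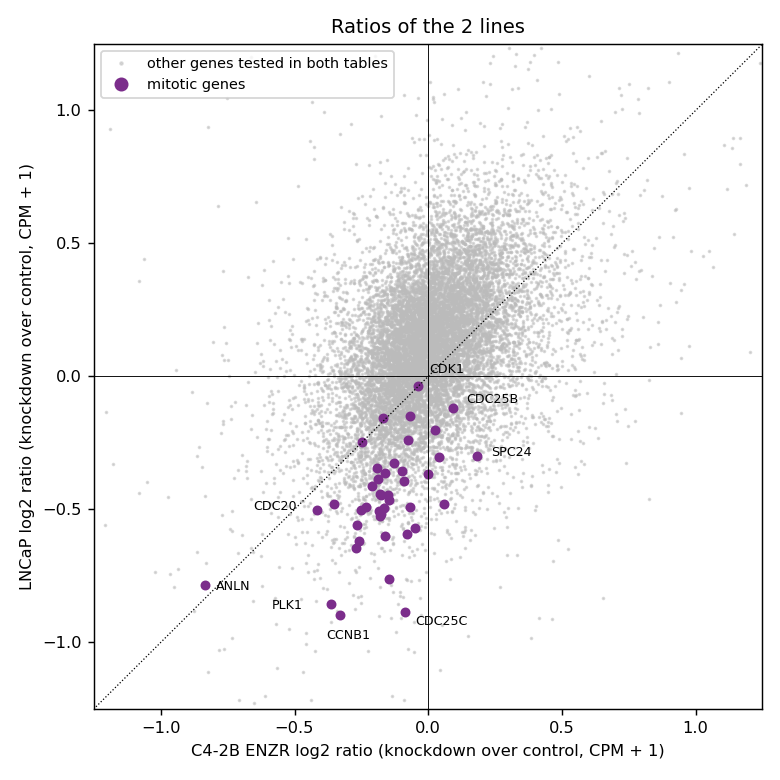
Log2 ratio of knockdown over control in C4-2B ENZR (x axis) against LNCaP (y axis), CPM + 1, for the 42 mitotic genes (large dots) and other genes tested in both tables (small dots), where the dotted line marks equal ratios and genes beyond the axes are not drawn. Of the large dots 37 lie at lower left, below 0 on both axes, and 40 lie below the dotted line, with ANLN and SPC25 just above it.

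The calls depended on scaling and test more than the direction did. All estimates were negative in each of 13 fits, of which the fit at a mean CPM of at least 5 held 41 of the 42 genes. A change of filter, prior or block leaves the estimate as it was. Agreement in sign between those fits therefore adds nothing to the direction. ANLN, CCNB1, CDC20, PLK1 and PRC1 fell in all 7 fits that differ in scaling or tool. Those 7 leave out the changes of filter, prior and block. In limma with a prior without trend, ANLN, CCNB1 and PLK1 kept the call. CDC20 and PRC1 lost it there (limma adjusted p = 0.0605 and 0.0907). BUB1B fell in limma with each scaling and in DESeq2 but not in edgeR with recomputed scaling (adjusted p = 0.0503). CDC25C, KIF20A and KIF4A fell in limma and edgeR with the deposited scaling and lost their call after centring (adjusted p = 0.120, 0.0593 and 0.0711). HMMR and AURKA kept theirs in limma after centring (adjusted p = 0.0375 and 0.0497). Both lost it with TMM recomputed in limma (0.0582 and 0.0691) and in edgeR (0.0582 and 0.0678), and in DESeq2 with its own scaling (0.0614 and 0.123).

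**Figure D5:**
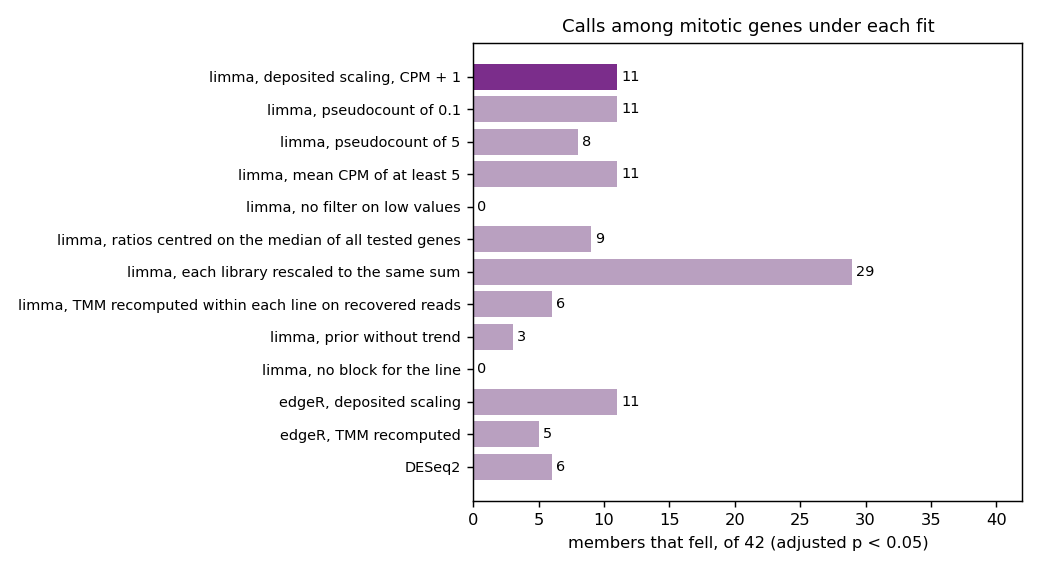
Number of the 42 mitotic genes that fell over both lines under each fit (adjusted p below 0.05); the dark bar is limma with the deposited scaling. The count is 11 there, 0 without a filter on low values or without the line as a block, and 29 after every column was brought to one sum.

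Other mitotic genes moved less evenly in LNCaP. Of 102 genes from condensin, cohesin, the anaphase-promoting complex, other kinetochore and checkpoint proteins, other kinases, centrosome and spindle proteins and the chromosomal passenger complex, 7 fell and none rose in limma, where 1.49% of all genes fell, and 3 (BIRC5, SMC1A and GTSE1) fell in edgeR with recomputed scaling. Their ratios had a median of -0.14 in C4-2B ENZR, where 85 were below 0 (49.6% of all tested genes were). In LNCaP the median was -0.21 and 79 were below 0 (33.4% of all tested genes were). Relative to the LNCaP median of all tested genes, it was -0.33 and 89 lay below. BIRC5, the passenger subunit survivin, was at 84.4 CPM in the C4-2B ENZR knockdown, against 175 CPM in its control, and at 26.6 CPM in the LNCaP knockdown, against 104 CPM in its control (-1.48, limma adjusted p = 1.50e-22), further apart than any of the 42. The other 6 that fell were the cohesin subunit gene SMC1A (-0.56), GTSE1 (-0.47), the condensin subunit gene NCAPG (-0.40), the outer kinetochore gene SKA3 (-0.40), the checkpoint ATPase gene TRIP13 (-0.40) and TROAP (-0.40). Relative to the median of all tested genes, the list medians in C4-2B ENZR and LNCaP were -0.11 and -0.56 for condensin, -0.14 and -0.16 for cohesin, and -0.12 and -0.23 for the anaphase-promoting complex. As deposited the LNCaP medians were -0.45, -0.05 and -0.12. Of 34 DNA replication genes, 6 fell and none rose, with a median of -0.20 in C4-2B ENZR and -0.34 in LNCaP. PCNA, the replication clamp gene, was at 108 against 183 CPM in C4-2B ENZR knockdown and control and at 40.7 against 83.8 CPM in LNCaP knockdown and control (-0.89, adjusted p = 2.07e-09).

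Genes listed as signs of RNA preparation and handling also differed in the same libraries. The 16 genes listed as replication-dependent histones, a class whose mRNAs typically lack a poly(A) tail, summed to 77.5 CPM in the C4-2B ENZR knockdown and 104 CPM in its control. In LNCaP they summed to 337 CPM in the knockdown and 200 CPM in its control, the direction opposite to the mitotic genes. HIST1H1C, HIST2H2BE and HIST1H2BK were highest in the LNCaP knockdown (93.8, 87.7 and 84.1 CPM), while HIST1H1B, HIST1H3B and HIST1H4B were at 0.18, 0.14 and 0.02 CPM there. Whether the RNA counted lacked the tail was not tested, so these sums need not reflect RNA preparation. HIST1H2BD, a histone H2B gene, rose as deposited (0.76, limma adjusted p = 0.000459) and lost this call both once centred (adjusted p = 0.180) and under edgeR with recomputed scaling (adjusted p = 0.145). The 14 immediate early genes summed to 543 against 469 CPM in C4-2B ENZR knockdown and control and to 1218 against 879 CPM in LNCaP knockdown and control, and ATF3, JUNB and NR4A1 rose (0.83, 0.48 and 0.40). After centring, and in edgeR with recomputed scaling, ATF3 alone of these 3 kept the call. Their part in the mitotic values was not tested.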

How the data were processed

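RNA was measured in 4 libraries of 2 human cell lines, 1 per group. The hg19 build, RSEM 1.2.15, Bowtie2 2.1.0 and edgeR are named, per the submitters' processing notes, without roles. As deposited by the authors, values are CPM after TMM scaling (trimmed means of log ratios), in 1 table per line. The deposited LNCaP values were handled as a signal on the CPM scale, since the knockdown column sums to 1064500. Tables were normalized separately, so ratios were taken within a table. All values were whole multiples of 1 read within 0.01 read (100%), and reads were recovered from these steps. The scaling that raised the knockdown over its control was 0.02 on the log2 scale in C4-2B ENZR, the same as TMM recomputed, and 0.20 in LNCaP, where recomputed TMM gave 0.08.

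Ratios were log2((knockdown CPM + 1)/(control CPM + 1)), which understates changes of low genes. A table's gene was kept at a mean of 1 CPM or more. Intervals of ratios are exact (Clopper-Pearson) at 95%. All genes passing in both tables were fitted over the 4 libraries by limma 3.58.1 (R 4.3.3), with line as a block and a trended prior. Alternatives were other pseudocounts, filters, scalings and priors, edgeR 4.0.16 and DESeq2 1.42.0 on recovered reads. On simulated counts for 13017 genes the limma step recovered 11.9%, 57.6% and 96.9% of genes changed 1.25-, 1.5- and 2-fold over both lines, and called 8 unchanged genes. These counts had a single dispersion (0.010) estimated from the same 4 libraries, the same fold in both lines and exact scaling. They do not show how the step performs where lines differ, scaling is uncertain or cultures vary. Nothing shows that libraries came from separate cultures beyond the 2 lines. Members and lists (198 list genes in 14 lists, all matched, 2 by synonym) were chosen with earlier results of these data known. All members are named, with values in every library for those called, the least changed of each role, and CDK1, CCNB1, PLK1 and FOXM1; several others were added after their values were seen. From other lists at most the 3 called genes with the smallest p are named, besides markers and extremes. Each transcript's 50-mers were compared across GENCODE v29.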

Additional observations from a re-analysis of the deposited data

Results flagged for a closer look

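CENPF, an outer kinetochore gene, was the 1 member whose counting intervals lay on opposite sides of 0 in the 2 lines. Its log2 ratio of knockdown over control was 0.0595 in C4-2B ENZR (counting interval 0.01 to 0.11) and -0.48 in LNCaP (-0.53 to -0.43). The difference between the lines was not tested, because each line has 1 library per group.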

How the results depend on the processing

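The count of mitotic genes that fell was 11 as deposited, where 196 of all 13114 genes fell. It was 6 in limma with TMM recomputed (108 of all genes), 5 in edgeR with TMM recomputed (114), 6 in DESeq2 (90), 3 with a prior without trend (130) and 29 once every column was brought to one sum (653). It was 0 without a filter on low values (0 of 25343 genes; 5 mitotic genes with an unadjusted p below 0.05) and 0 with no block for the line (0 of all genes; 0 mitotic genes with an unadjusted p below 0.05). For single genes over both lines, 52 alternative values lost the call, 19 gained it, and 432 kept their side of the threshold. None changed sign, which a change of filter, prior or block could not have brought about. In C4-2B ENZR 5 genes were at least 20% lower and 0 were 2-fold lower. In LNCaP the count of genes 1.5-fold lower was 21 after centring, 27 at one common sum and 21 with TMM recomputed. As deposited, 33 LNCaP genes were at least 20% lower and 0 were 2-fold lower, and after centring these counts were 37 and 1. The LNCaP median was -0.59 after centring, -0.67 at one common sum and -0.59 with TMM recomputed. In windows shortened to 100 bases before the start, E2F matches were in 5.56% of mitotic and 4.75% of tested genes, so the difference of the longer window was mostly gone. Knockdown and control were paired within each line by the block, and the labels carry no replicate numbers for another pairing. Each gene had at least 188 reads in each library, but with 1 library per group the spread between cultures is unknown.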
